A study of Rattus norvegicus with 12 samples.

Results

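The nuclear genes for the mitochondrial respiratory chain were followed in cultured rat preadipocytes, the precursors from which fat cells form. Members were taken by gene symbol: every probe set annotated with exactly 1 symbol that begins with Nduf, Sdh (Sdha to Sdhd), Uqcr, Cox4 to Cox8 or Atp5, together with Cyc1. These were 90 probe sets for 85 genes among the 10411 genes with 1 symbol on the array, and where a gene had several, the one of highest mean log2 signal was used. Of the 85 genes, 76 encode structural subunits: 34 of complex I, 4 of complex II, 8 of complex III, 15 of complex IV and 15 of complex V. The other 9 are assembly factors, an inhibitor, paralogues and a pseudogene whose symbols begin the same way. The filter on low signal kept 82 members. A further 9 probe sets carried several symbols and were left out, so cytochrome c (Cycs), Uqcrb, Cox7a2 and the c subunit genes Atp5mc1 and Atp5mc2 have no value here.

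The respiratory chain sits in the inner mitochondrial membrane. Complex I and complex II pass electrons from NADH and succinate to ubiquinone, complex III passes them on to cytochrome c, and complex IV hands them to oxygen. Complexes I, III and IV move protons outward, and complex V, the ATP synthase, lets them back to make ATP. Complex II is encoded in the nucleus alone, whereas the other 4 complexes combine nuclear subunits with a few encoded by mitochondrial DNA. In fat cell precursors, mitochondrial content rises as the cells differentiate, and brown fat cells use the same chain to make heat through Ucp1.

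The cells came from male Brown Norway rats kept behind a barrier, 3 young (3 months) and 3 old (30 months). From each rat, stromal cells of the perirenal and of the epididymal fat pad were released with collagenase, plated, replated and grown to confluence in serum. Each rat gave 1 perirenal and 1 epididymal array, so the 12 arrays form 4 groups of 3, one for each depot at each age. The samples carry no transgene and no treatment beyond culture, and the cells had divided in the dish before RNA was taken. The labels name no step to induce differentiation, and state that macrophage markers did not vary with age or depot. The 6 rats are separate animals, and with 3 arrays per group their number limits the precision of every value.

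Transcription factors of the nuclear respiratory factor 1 (NRF1), ETS and YY1 families are known to act at promoters of respiratory chain genes. RefSeq promoters (build GRCr8, 250 bases before to 50 after the start) were found for 76 members. Both strands were searched for the NRF1 letters GCATGCGC, the ETS letters CCGGAAG and the YY1 letters GCCATCTTG, and matches were allowed to overlap. The NRF1 letters were in 9 of 76 member promoters (11.8%), against 4.39% of promoters of genes on the array and 2.47% of all RefSeq promoters. For the ETS letters the counts were 21 of 76 (27.6%), against 14.9% and 8.75%, and for the YY1 letters 10 of 76 (13.2%), against 2.45% and 1.32%. At least 1 motif was in 32 of 76 (42.1%), against 20.1% of promoters of genes on the array, and Atp5me and Ndufa6 held all 3. These shares describe letters in a window and show no binding. Of the printed promoters, those of Ndufa11, Sdhc and Atp5me belong to members that were higher in perirenal cells, and that of Atp5mk to the member of complex V that was lowest there against epididymal cells. They are given 5′ to 3′, with the matched letters of the 3 motifs in capitals.
Ndufa11, chr9:1637364-1637663, plus strand: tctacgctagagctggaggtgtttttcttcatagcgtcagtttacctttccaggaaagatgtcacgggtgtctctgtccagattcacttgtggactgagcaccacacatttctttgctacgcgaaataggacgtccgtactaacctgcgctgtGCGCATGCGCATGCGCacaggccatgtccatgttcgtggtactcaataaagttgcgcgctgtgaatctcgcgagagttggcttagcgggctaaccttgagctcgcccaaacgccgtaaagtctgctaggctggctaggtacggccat
Sdhc, chr13:86097976-86098275, minus strand: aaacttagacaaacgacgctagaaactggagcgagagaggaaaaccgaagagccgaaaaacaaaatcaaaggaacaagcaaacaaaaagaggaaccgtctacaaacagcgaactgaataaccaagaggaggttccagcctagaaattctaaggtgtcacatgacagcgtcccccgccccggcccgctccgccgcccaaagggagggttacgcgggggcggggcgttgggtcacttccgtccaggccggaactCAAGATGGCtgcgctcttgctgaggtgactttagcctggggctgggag
Atp5me, chr14:1464610-1464909, plus strand: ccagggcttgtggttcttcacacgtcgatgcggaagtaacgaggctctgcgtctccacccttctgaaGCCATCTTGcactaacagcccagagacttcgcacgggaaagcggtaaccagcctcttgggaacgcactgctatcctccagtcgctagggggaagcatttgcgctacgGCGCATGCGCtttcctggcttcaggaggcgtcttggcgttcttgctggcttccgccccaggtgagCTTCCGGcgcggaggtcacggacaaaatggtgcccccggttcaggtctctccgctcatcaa
Atp5mk, chr1:255921998-255922297, minus strand: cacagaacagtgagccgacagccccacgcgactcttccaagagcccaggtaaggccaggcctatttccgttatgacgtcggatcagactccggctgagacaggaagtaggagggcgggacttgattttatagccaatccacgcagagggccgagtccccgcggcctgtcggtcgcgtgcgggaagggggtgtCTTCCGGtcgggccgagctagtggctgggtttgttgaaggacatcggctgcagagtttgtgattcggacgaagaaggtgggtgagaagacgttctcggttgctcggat
The Ndufa11 capitals are 4 overlapping NRF1 matches on both strands, Sdhc has a single YY1 match, Atp5me has matches of all 3 motifs, and Atp5mk has a single ETS match. Among the promoters found, 8 of members higher in perirenal cells, 20 of members lower and 45 of members that did not pass, the NRF1 letters were in 2, 3 and 4, the ETS letters in 4, 5 and 12, and the YY1 letters in 3, 4 and 3. These counts are small and were not tested.

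Several measures moved with depot on these arrays. Beta-actin signal from the 3′ end over that from the 5′ end, a ratio that rises when labelled RNA is incomplete, lay between 0.902 and 1.11 in perirenal and between 5.25 and 55.0 in epididymal samples, while array medians lay between 194.3 and 202 and between 153 and 176. Depot and this ratio cannot be told apart: with the ratio as a covariate no member differed between depots, and the median standard error of the members' depot differences went from 0.11 to 0.27. All 7 mesenchymal precursor markers on the array lay above the low-signal filter, and none of 3 endothelial or 4 testis germ cell markers did. The mesenchymal markers summed to 62383 to 75523 in perirenal and 91597 to 108605 in epididymal cells, with Col1a1 (-0.84), Col3a1 (-0.80), Dcn, Lum and Pdgfrb lower and Thy1 (0.79) higher in perirenal cells. Smooth muscle markers (Acta2, Tagln, Cnn1, Myh11) summed to 7831 to 14081 in perirenal and 18319.8 to 30121 in epididymal cells, and all 4 were lower in perirenal cells. Mesothelial markers summed to 779.7 to 997 and 1498 to 2565, macrophage and leukocyte markers to 401 to 1883 and 372 to 905. By age, the latter were 401 to 850 in young and 720 to 1883 in old perirenal cells. In epididymal cells they were 382 to 719 in young and 372 to 905 in old rats. None of the 3 macrophage markers tested passed for age in perirenal cells, with a median age difference of 1.53. Of the macrophage markers Lyz2 (1.07, adjusted p = 0.0316) and Csf1r (0.62, adjusted p = 0.0247) were higher in perirenal cells, and the part of these cell types in the results below was not tested. In cultures of mixed cells, fewer cells of a type and less RNA per cell cannot be told apart.

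The depot comparison asks whether perirenal and epididymal preadipocytes differ in respiratory chain expression, averaged over both ages. Respiratory chain genes did not move as a block: 35 of the 82 tested members differed, 11 of them higher and 24 lower in perirenal cells. Over all tested probe sets 51.7% differed. Under another scaling of the arrays, quantile normalization, 18 members were higher and 18 lower, and with the beta-actin covariate none passed. Subunits of the same complex went in opposite directions. Members whose arrays did not overlap between depots included the complex I subunit Ndufa11 (0.69), the membrane anchor Sdhd of complex II (0.64) and the ATP synthase subunit Atp5f1a (0.61) on the higher side. On the lower side they included Ndufa2 of complex I (-0.75) and Atp5mk (-0.72), Atp5f1e (-0.71) and Atp5f1c (-0.61) of complex V. Most differences were small: 12 of the 35 exceeded 1.5-fold, against 3682 of the 5738 probe sets that passed over the whole table. The whole table is not matched to the members for signal. Its median standard deviation within groups was 0.212 in perirenal and 0.278 in epididymal cells, against 0.170 and 0.181 for the members. Whether small differences are particular to these genes was not tested. Differences are log2 signal in perirenal minus epididymal cells with limma's standard error, 6 arrays per depot, and a member passed at a Benjamini-Hochberg adjusted p under 0.05 over all 11106 tested probe sets.

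The members' share that passed, 42.7%, lies below the share over all tested probe sets, 51.7%. Over the whole table, 30.2% were higher and 21.4% lower in perirenal cells. Both passing and exceeding 1.5-fold were 33.2% of all tested probe sets and 12 of the 82 members. The median difference of the members was -0.11, against 0.08 over all tested probe sets. Members have strong signals, with 67 of 82 in the highest 25% of mean signal, and the median over those probe sets was also -0.11, with 51.5% of them passing. Quantile normalization, which gives all arrays the same distribution, moved the median over all tested probe sets from 0.08 to -0.03. It left 36 members past the threshold, 18 higher and 18 lower, and 27 of the 35 kept their call and direction. A total of 18 members, 6 higher and 12 lower, stayed past the threshold in each of 13 alternatives. These were quantile normalization, both rat blocks, no filter, no trend, an offset, 2 arrays left out and each of 6 rats left out. The 13 leave out the beta-actin covariate, under which no member passed. How many of all tested probe sets stayed past the threshold in all 13 was not counted. Leaving out old rat 2 reduced the 35 to 22.

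The arrays of the depots did not overlap for 15 members (18.3%), against 27.7% of all tested probe sets. These were Ndufa11, Sdhc, Sdhd, Atp5f1a and Atp5f1d, with all 6 perirenal arrays above all 6 epididymal arrays, and Ndufa2, Ndufa3, Ndufa7, Ndufb7, Ndufs6, Uqcr10, Cox6b2, Atp5f1c, Atp5f1e and Atp5mk, with all 6 below. The counts by complex stand beside 51.7% of all tested probe sets that passed, and they were not tested against it. Members that passed were 11 of 34 in complex I, 2 of 4 in complex II and 3 of 8 in complex III. In complex V 10 of 15 passed, and in complex IV 6 of 12. The 6 include Cox6b2 and Cox4i2, which passed the filter only through the depot of higher signal, and without them complex IV had 4 of 10. Both also count among all members that passed, and Cox6b2 among the 15 without overlap. The median depot difference was -0.13 in complex I, 0.15 in complex II, -0.04 in complex III, 0.03 in complex IV and -0.12 in complex V. Under quantile normalization the medians of complexes III and V became 0.11 and 0.07, so the sign of these small medians depends on the scaling. The plot of depot differences by complex shows this mix of directions.

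**Figure D1:**
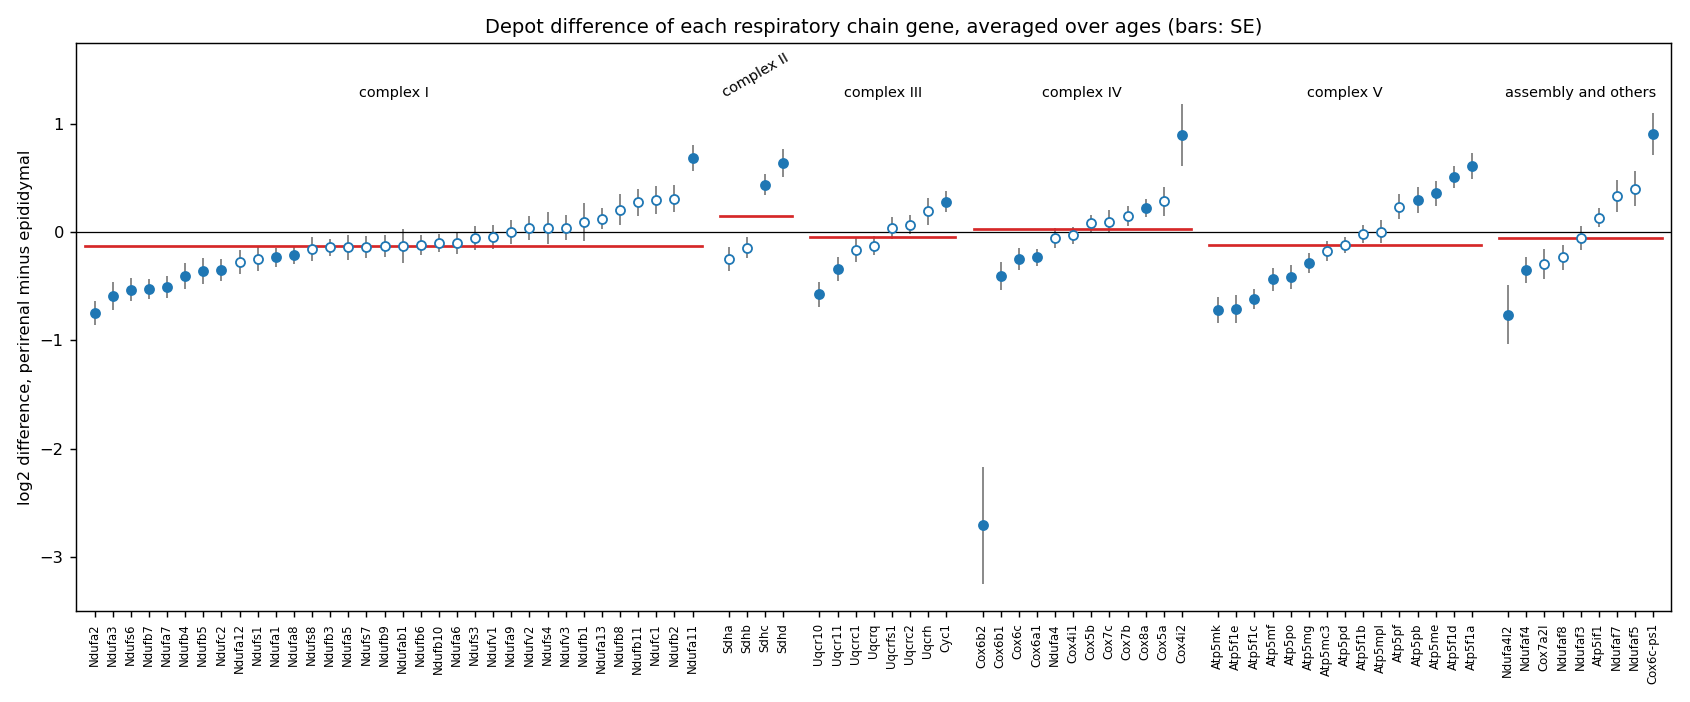
The log2 depot difference (perirenal minus epididymal, vertical axis) of each of the 82 tested members, ordered within each complex, with standard errors as bars, filled points for members past the adjusted threshold and red lines for the median of each complex. Members on both sides of 0 passed in complexes I, III, IV and V, the lowest point is Cox6b2, whose perirenal signals lie partly under the filter level, and the medians lie between -0.13 and 0.15.

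Levels averaged over the tested members of each complex are given as a description, with no test. Complex I had a mean log2 signal of 10.63 ± 0.07 in young perirenal, 10.61 ± 0.10 in old perirenal, 10.79 ± 0.13 in young epididymal and 10.69 ± 0.09 in old epididymal cells (SD, n = 3 arrays). Complex II ran the other way, from 10.94 ± 0.12 and 10.93 ± 0.15 in perirenal to 10.79 ± 0.11 and 10.72 ± 0.06 in epididymal cells. Complex III was at 11.70 ± 0.09, 11.60 ± 0.04, 11.74 ± 0.17 and 11.72 ± 0.08 in the same order of groups, and complex V at 11.90 ± 0.06, 11.81 ± 0.09, 12.00 ± 0.15 and 11.91 ± 0.07. On the deposited scaling, the means of complexes I, III and V were higher in epididymal than in perirenal cells at both ages, and those of complex II lower. The young complex III means, 11.70 and 11.74, differed by less than the SD of either group. Under quantile normalization the median depot differences of complexes III and V turned positive. Complex IV was at 10.70 ± 0.21, 10.84 ± 0.18, 11.03 ± 0.06 and 10.84 ± 0.08, and its mean includes the weak and variable Cox6b2. In young rats Cox6b2 was at -3.66 between depots, with perirenal signals partly under the filter level. The next lowest member of complex IV there, Cox6b1, was at -0.58. The low young perirenal mean of complex IV therefore rests largely on Cox6b2. These averages hide members that moved in opposite directions, and they are not compared between complexes, because probe sets of different genes have no common scale.

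Complex I takes electrons from NADH. Its core subunits, which carry the NADH site and iron-sulfur clusters, did not pass in the depot comparison: 0 of the 6 measured, with differences from -0.24 (Ndufs1) to 0.04 and Ndufv1, the NADH-binding subunit, at -0.04. Of the 28 accessory subunits, which surround the core, 11 passed, 1 higher and 10 lower in perirenal cells. Over all tested probe sets 51.7% passed, 30.2% higher and 21.4% lower. The balance of directions over all members depended on the scaling, with 18 higher and 18 lower under quantile normalization. Whether core and accessory subunits differ as groups was not tested.

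Ndufa2, an accessory subunit of the matrix arm, had signals of 1594, 1205 and 1714 in young perirenal, 1605, 1264 and 1552 in old perirenal, 2307, 2149 and 2774 in young epididymal and 2424, 2770.3 and 2502 in old epididymal cells. Every perirenal array lay below every epididymal array. The depot difference was -0.75 ± 0.11 (1.68-fold lower in perirenal cells, adjusted p = 0.00014). Ndufa11, an accessory subunit of the membrane arm, ran the other way, with 2895, 2264 and 2698 in young perirenal, 2318, 2044 and 2613 in old perirenal, 1287, 1804 and 1981 in young epididymal and 1459.7, 1397 and 1328 in old epididymal cells. Its depots did not overlap either. It was the only complex I subunit that passed as higher in perirenal cells averaged over ages, by 0.69 ± 0.12 (1.61-fold, adjusted p = 0.000354). Under quantile normalization Ndufa2 was at -0.70 and Ndufa11 at 0.74.

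The next largest falls in complex I were those of 2 further accessory subunits. Ndufa3 signals lay between 1069.9 and 1414 in perirenal and between 1482 and 2245 in epididymal cells, a difference of -0.59 ± 0.13 (adjusted p = 0.00225). Ndufs6, which sits beside an iron-sulfur subunit of the matrix arm, lay between 1849 and 2588 against 2694 to 3478, a difference of -0.53 ± 0.10 (adjusted p = 0.00106). Neither gene had overlapping depots. Ndufb7, a small subunit of the membrane arm, had 1201, 1237 and 1249 in young perirenal, 1303, 1118 and 1312 in old perirenal, 1812, 1906 and 1803 in young epididymal and 1588, 2027 and 1586 in old epididymal cells, again without overlap, at -0.53 ± 0.09 (adjusted p = 0.000419). Ndufa7 was at -0.50, and the smaller falls were those of Ndufb4 (-0.40), Ndufb5 (-0.36), Ndufc2 (-0.35), Ndufa1 (-0.23) and Ndufa8 (-0.21). Ndufv3 is measured by more than 1 probe set: the one used was at 0.05 and another, of lower signal, at -0.79 (adjusted p = 0.00161), so its depot difference depends on the probe set.

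Complex II oxidises succinate and also belongs to the citric acid cycle. Its catalytic subunits did not pass and its membrane anchors were both higher in perirenal cells. Sdhd had 2007, 2531 and 2104 in young perirenal, 1898, 2398 and 2665 in old perirenal, 1093, 1592 and 1649 in young epididymal and 1416, 1709 and 1279.8 in old epididymal cells. All perirenal arrays lay above all epididymal arrays, with a difference of 0.64 ± 0.13 (1.56-fold, adjusted p = 0.00132), and a further probe set for Sdhd was at 1.13. Sdhc, the other anchor, had 2326, 2621 and 2529.7 in young perirenal, 2100.1, 2382 and 2334 in old perirenal, 1673, 1869 and 1944 in young epididymal and 1945, 1421 and 1704 in old epididymal cells. Its depots did not overlap, and the difference was 0.44 ± 0.10 (1.36-fold, adjusted p = 0.00183). The flavoprotein Sdha was at -0.24 ± 0.11 (adjusted p = 0.0803) and the iron-sulfur subunit Sdhb at -0.14 ± 0.09 (adjusted p = 0.231). Without young rat 2, Sdha passed the threshold at -0.35.

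Complex III hands electrons from ubiquinol to cytochrome c. Of its 8 measured subunits, Cyc1 passed as higher and the small subunits Uqcr10 and Uqcr11 passed as lower in perirenal cells. Uqcr10 had 4009, 3084 and 3815 in young perirenal, 3532, 3017 and 4338 in old perirenal, 4917, 4786 and 6217 in young epididymal and 4927, 6361 and 5133 in old epididymal cells. Its depots did not overlap, and it was lower by 0.57 ± 0.12 on the log2 scale (1.49-fold, adjusted p = 0.00127), or by 0.39 under quantile normalization. Cyc1, cytochrome c1 with its haem, was at 0.28 ± 0.10 (adjusted p = 0.0238) and Uqcr11 at -0.34 ± 0.11 (adjusted p = 0.0213). Neither held its call throughout: Cyc1 was at 0.25, 0.26 and 0.22, past no threshold, without young rat 1, young rat 2 and old rat 2, and Uqcr11 lost its call without young rats 1 and 3 and old rats 2 and 3, at -0.33 to -0.30. The core protein Uqcrc1 was at -0.16 and the Rieske iron-sulfur protein Uqcrfs1 at 0.04, and neither passed.

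Complex IV, cytochrome c oxidase, carries several subunits in a general form and in a form that belongs to particular tissues. The 3 members that the low-signal filter removed are such forms: Cox6a2, Cox7a1 and Cox8b, known from heart and skeletal muscle and, for Cox7a1 and Cox8b, from brown fat. Cox8b lay between 3.4 and 13.9 and Cox6a2 between 6.1 and 24.5 on all 12 arrays. Their general counterparts Cox6a1 and Cox8a were well measured, with Cox8a between 4497 and 6925.

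Cox6b2, the form of subunit 6b known from testis, had 64.7, 5.0 and 30.3 in young perirenal, 78.4, 28.2 and 86.9 in old perirenal, 323, 164 and 371 in young epididymal and 366, 140.2 and 148 in old epididymal cells. The depots did not overlap, and the fitted difference was -2.71 ± 0.54 (adjusted p = 0.00114). This value is not a measure of size and no fold is given, because the geometric mean in young perirenal cells, 21.4, lies under the filter level of 56.3. Cox6b2 therefore passed the filter through its epididymal signals, and its adjusted p gives no support of its own. The testis germ cell markers on the array (Ldhc, Odf1, Prm1, Tnp1) were all under the filter level and had a summed signal between 53.8 and 140.5 in epididymal and between 121 and 300.2 in perirenal cells. The general form Cox6b1 was at -0.40 ± 0.13 (adjusted p = 0.0183), in the same direction, and did not pass when young rat 3 or old rat 2 was left out, at -0.28 and -0.36, or under quantile normalization, at -0.25.

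Cox4i2, the form of subunit 4 known from lung and from oxygen-sensing cells, had 75.4, 69.0 and 106 in young perirenal, 74.1, 126 and 169 in old perirenal, 73.6, 56.5 and 35.8 in young epididymal and 51.3, 38.4 and 70.1 in old epididymal cells. The depots overlapped, and it passed the filter through its perirenal signals. The fitted difference was 0.90 ± 0.29 (adjusted p = 0.0189), a call lost when young rat 3 (0.67) or old rat 2 (0.76) was left out and under quantile normalization (0.33). Its epididymal geometric means lie under the filter level, so this value is not a measure of size. As the filter kept Cox4i2 through the depot of higher signal, its adjusted p gives no support of its own. The general form Cox4i1 lay between 7245 and 9228 on perirenal and between 6965 and 8975 on epididymal arrays and did not pass at -0.03 ± 0.08. It turned to 0.27 (adjusted p = 0.0089) under quantile normalization, so its direction depends on the scaling. Cox8a was at 0.22, Cox6a1 at -0.23 and Cox6c at -0.25, calls that each failed without 4 or more of the 6 rats in turn, and Cox5a at 0.29 did not pass.

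Complex V makes ATP in a rotating assembly, and subunits of its catalytic head and central stalk moved in opposite directions. Atp5f1a, the alpha subunit of the head, had 5637, 5438 and 5611 in young perirenal, 4837, 5058 and 7071 in old perirenal, 2971, 3521 and 4583 in young epididymal and 3331, 3784 and 3826 in old epididymal cells. Perirenal arrays lay above epididymal arrays without overlap, by 0.61 ± 0.12 (1.53-fold, adjusted p = 0.000877). Atp5f1b, the beta subunit that carries the catalytic sites, lay between 8366 and 10446 on perirenal and between 8182 and 10782 on epididymal arrays. Its difference was -0.01 ± 0.09 and did not pass, with a 95% interval of -0.20 to 0.17, and it turned to 0.31 (adjusted p = 0.00813) under quantile normalization.

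Atp5f1c, the gamma subunit whose shaft turns within the head, had 3465, 3545 and 3732 in young perirenal, 3274, 3284 and 4329 in old perirenal, 5055, 5368 and 5946 in young epididymal and 5227, 6130.1 and 5311 in old epididymal cells. It was lower in perirenal cells on every array, by 0.61 ± 0.09 on the log2 scale (1.53-fold, adjusted p = 0.000125). Atp5f1e, the epsilon subunit at the foot of the shaft, went the same way at -0.71 ± 0.13 (adjusted p = 0.00062), with perirenal signals between 2592 and 4338 and epididymal signals between 4504 and 7377. Atp5f1d, the delta subunit beside it, went the other way at 0.52 ± 0.10 (adjusted p = 0.000911), from 4008 to 5313 against 2469 to 3503. The depots did not overlap for any of these 3 stalk subunits. Under quantile normalization Atp5f1a, Atp5f1c, Atp5f1d and Atp5f1e kept their directions at 0.78, -0.45, 0.65 and -0.56.

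In the membrane part and the peripheral stalk of complex V, 6 of 10 members passed, against 51.7% of all tested probe sets. Atp5mk, a small membrane subunit, had 3240.0, 3210.2 and 3261 in young perirenal, 3310.0, 3203 and 4278 in old perirenal, 5460.2, 4617 and 6655 in young epididymal and 4596, 5628 and 6957 in old epididymal cells. Its depots did not overlap, and it was lower by 0.72 ± 0.12 on the log2 scale (1.64-fold, adjusted p = 0.000322). Atp5me, a neighbouring membrane subunit, was at 0.36 ± 0.12 (adjusted p = 0.0187), a call lost when young rat 1 (0.28), or old rats 1 (0.33) and 2 (0.35) in turn, were left out. Among the remaining subunits that passed, Atp5mf (-0.43), Atp5mg (-0.28) and the stalk subunit Atp5po (-0.41) were lower and the stalk subunit Atp5pb (0.30) was higher. Atp5mc3, the only c ring gene with a probe set of its own here, did not pass at -0.17 ± 0.09.

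**Figure D2:**
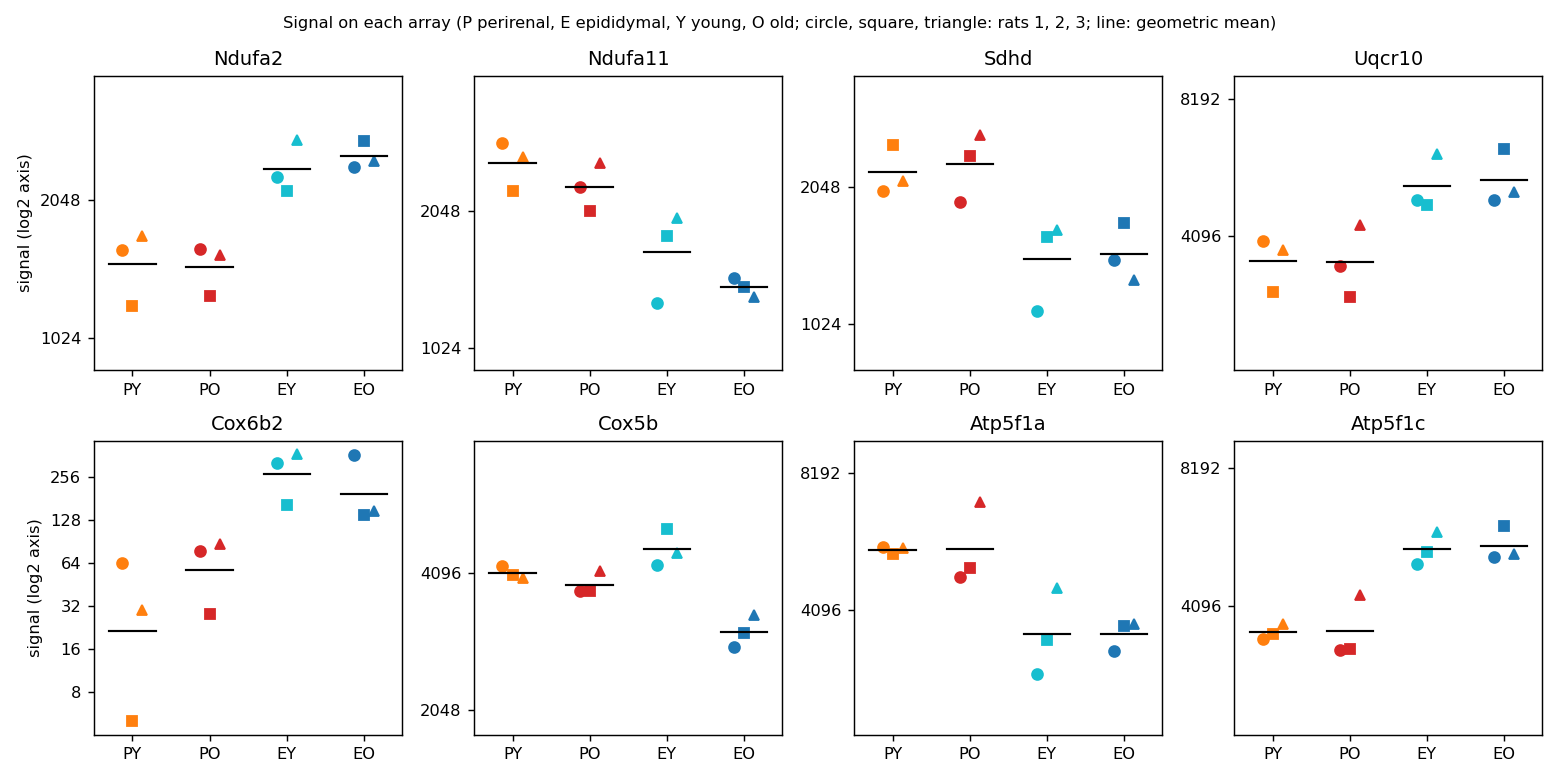
Signal (log2 axis) of 8 members on each of the 12 arrays, by group: young perirenal (PY), old perirenal (PO), young epididymal (EY) and old epididymal (EO), with circle, square and triangle for rats 1, 2 and 3 of an age and lines at the geometric mean. Perirenal points lie below epididymal points for Ndufa2, Uqcr10, Cox6b2 and Atp5f1c and above them for Ndufa11, Sdhd and Atp5f1a, while Cox5b is lowest in old epididymal cells (2814 to 3309).

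Among the members that are not structural subunits, 3 of 9 passed, against 51.7% of all tested probe sets. The Cox6c pseudogene Cox6c-ps1 was at 0.91 ± 0.19 (adjusted p = 0.00162), while Cox6c itself was at -0.25 ± 0.10, and how the probe sets divide signal between such near-identical copies was not tested. Ndufa4l2, a hypoxia-induced paralogue of Ndufa4, was at -0.76 ± 0.27 (adjusted p = 0.0317), and the complex I assembly factor Ndufaf4 at -0.35 ± 0.12 (adjusted p = 0.0272). Ndufa4l2 lost its call when any of young rats 1 and 2 and old rats 2 and 3 was left out, at -0.84 to -0.46, and Ndufaf4 when any rat but old rat 1 was, at -0.37 to -0.26. The ATP synthase inhibitor Atp5if1 and the supercomplex factor Cox7a2l did not pass.

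The array also carried 2 subunits of complex IV encoded by mitochondrial DNA, which the choice by symbol did not take in. COX1 gave 16027, 14356 and 15016 in young perirenal, 14311, 15969 and 16532 in old perirenal, 25706, 26589.5 and 24415 in young epididymal and 22958, 27312 and 27365 in old epididymal cells. COX1 was lower in perirenal cells by 0.74 ± 0.07 on the log2 scale (1.67-fold, adjusted p = 3.43e-06) and COX2 by 0.71 ± 0.07 (1.63-fold, adjusted p = 3.97e-06), with no overlap between depots. Both shrank under quantile normalization, to -0.24 and -0.25. The nuclear subunits of complex IV had a median of 0.03, and the difference between the nuclear and the mitochondrial genes was not tested.

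Within young rats 29 members differed between depots, 7 higher and 22 lower in perirenal cells (35.4% of members, against 34.9% of all tested probe sets). Within old rats 21 differed, 10 higher and 11 lower (25.6%, against 31.8%). A total of 15 members passed at both ages in the same direction, 5 higher and 10 lower. A further 14 passed in young rats alone, 6 in old rats alone and 47 at neither age. Of the 82, 66 had the same sign at both ages. These overlaps between ages were not counted over all tested probe sets, so they are not read as particular to the members. Among the members that passed, the largest rises in young rats were those of Ndufa11 (0.65), Atp5f1d (0.63), Sdhd (0.63), Atp5f1a (0.61) and Cox5a (0.53), and the largest falls those of Ndufa4l2 (-1.26), Atp5f1e (-0.87), Atp5mk (-0.77) and Ndufa2 (-0.69). Cox6b2 also passed as lower in young rats, against perirenal signals under the filter level, and did not pass in old rats. Among those that passed in old rats, the largest rises were those of Cox6c-ps1 (1.18), Ndufa11 (0.73), Sdhd (0.66) and Ndufb11 (0.63), and the largest falls those of Ndufa2 (-0.81), Atp5mk (-0.66), Atp5f1c (-0.62), Uqcr10 (-0.60) and Ndufa7 (-0.57). Cox4i2 also passed as higher in old rats, against epididymal signals with a geometric mean under the filter level. With 1 rat of the age left out, which leaves 2 arrays per group, the 29 became 15, 11 and 12 without young rats 1, 2 and 3, and the 21 became 14, 4 and 7 without old rats 1, 2 and 3. Over all tested probe sets the 3880 calls in young rats became 2589, 2535 and 2305, and the 3528 in old rats 2324, 1826 and 2219.

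**Figure D3:**
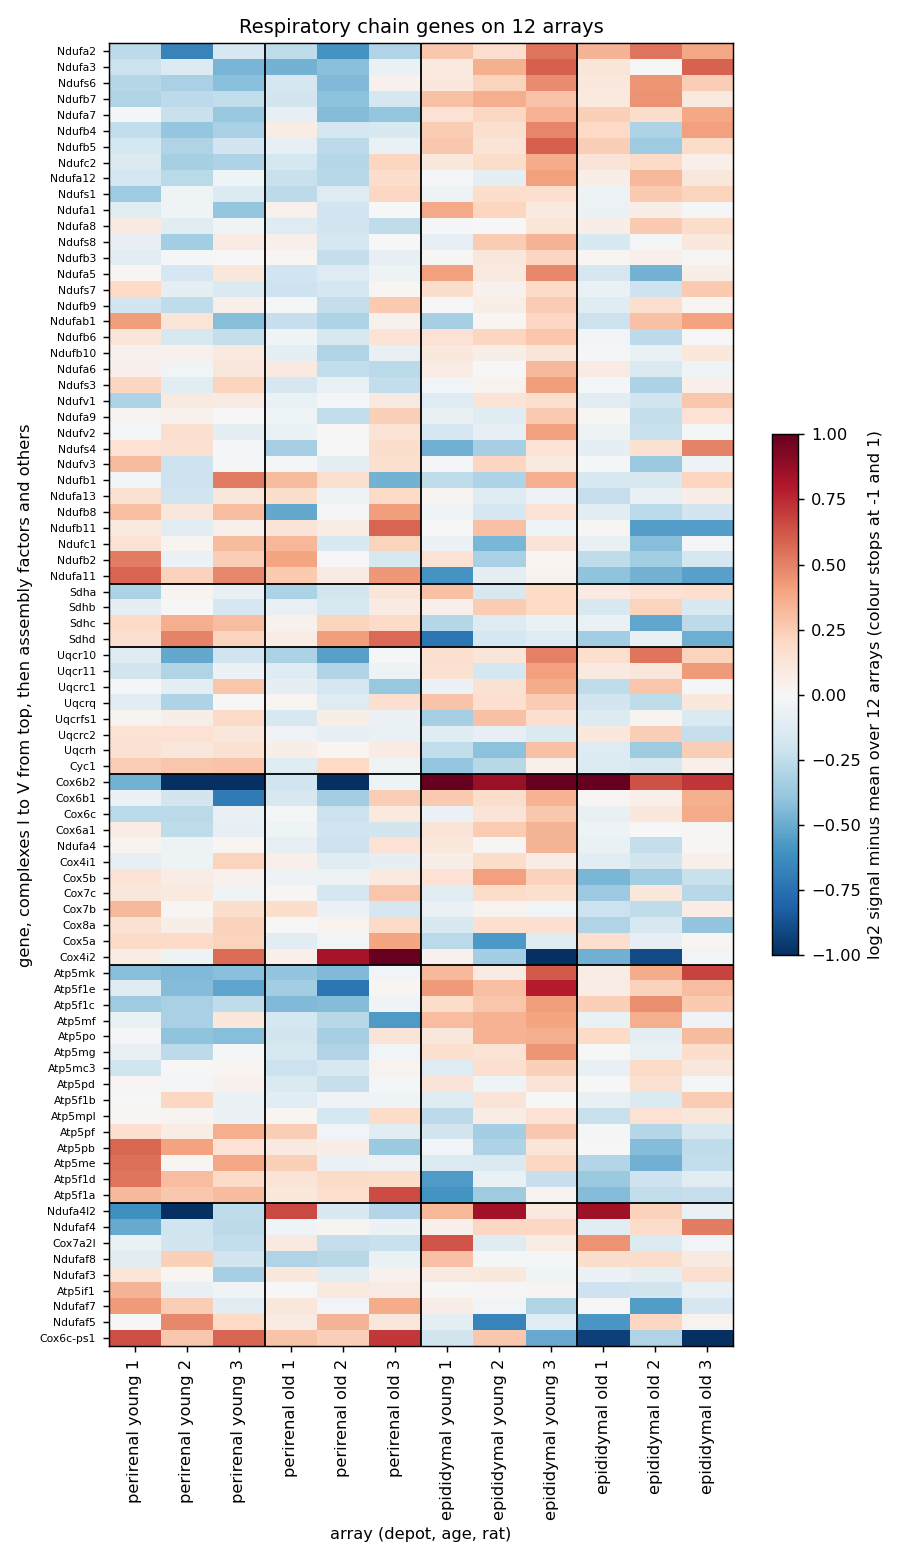
Log2 signal of each tested member (rows, complexes I to V from the top and then assembly factors and others, ordered by depot difference) minus its mean over the 12 arrays (columns, by depot, age and rat), with colour stopping at -1 and 1. Members at the top and bottom of complexes I and V change colour between the 6 perirenal and 6 epididymal arrays, while young and old arrays of a depot look alike for most rows.

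The age comparison asks whether preadipocytes of old rats differ from those of young rats within a depot. By limma no member passed the adjusted threshold in perirenal or in epididymal cells, nor with both arrays of a rat averaged, 3 old against 3 young rats. Over all tested probe sets 0% passed in perirenal cells, 0.072% in epididymal cells and 0.018% with arrays averaged. At an unadjusted p under 0.05 there were 2 of 82 members in perirenal cells, 8 in epididymal cells and 5 with arrays averaged, against 4.38%, 8.35% and 5.83% of all tested probe sets. The 95% interval of the age difference lay within 2-fold either way for 79 members in perirenal cells, all but Cox4i2, Cox6b2 and Ndufa4l2, and for 80 in epididymal cells, all but Cox6b2 and Cox6c-ps1. The median age difference (old minus young) of the members was -0.04 in perirenal and -0.10 in epididymal cells, against -0.01 over all tested probe sets in both.

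In perirenal cells, 11 members had old and young arrays that did not overlap, 2 higher and 9 lower with age (13.4% of members, against 13.6% of all tested probe sets). Complex III held 4 of the 11, all lower in old rats: Uqcrc1, Uqcrc2, Cyc1 and Uqcrh. Cyc1 had 3547, 3635 and 3641 in young and 2756, 3436 and 2917 in old perirenal cells, and its age difference of -0.26 ± 0.14 did not pass (adjusted p = 0.999). The smallest p in each direction belonged to Atp5pb, a peripheral stalk subunit, and Ndufa4l2. Atp5pb had 6982, 6229.6 and 5184 in young and 5009, 4914 and 3642 in old perirenal cells, a difference of -0.44 ± 0.17 (adjusted p = 0.999), and Ndufa4l2 was at 0.90 ± 0.39 (adjusted p = 0.999). The 4 redox and core subunits of complex III all had negative age differences, with a median of -0.23, and none passed. Among the other core and catalytic subunits, none of which passed, Sdha was at -0.01, Atp5f1a at 0.00, Ndufv1 at 0.05, Atp5f1b at -0.11 and Ndufs3 at -0.27.

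In epididymal cells, 12 members had old and young arrays that did not overlap, 1 higher and 11 lower with age (14.6% of members, against 10.6% of all tested probe sets). Complex IV held 5 of the 12: Cox4i1, Cox5b, Cox6a1 and Cox8a lower and Cox5a higher in old rats. The median age difference of complex IV was -0.22, with 10 of its 12 members below 0. Cox5b, a zinc-binding subunit of complex IV, had 4261, 5123 and 4522 in young and 2814, 3029 and 3309 in old epididymal cells, a difference of -0.60 ± 0.11 (1.52-fold, adjusted p = 0.108). This was the lowest adjusted p of any member by age, and it did not pass in any setting tried. In perirenal cells Cox5b had 4234, 4053 and 3985 in young and 3728, 3733 and 4129.5 in old rats, a difference of -0.08, and the ages overlapped.

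Among the other members in epididymal cells, Ndufa5, an accessory subunit of complex I, followed Cox5b with 955, 770.2 and 1004 in young and 639, 517 and 754 in old rats (-0.52 ± 0.16, adjusted p = 0.394). Every old array lay below every young array. Of the members higher with age, the complex I accessory subunit Ndufs4 (0.40, adjusted p = 0.621) and Cox5a (0.36, adjusted p = 0.63) had the smallest p, and neither passed. Cox5a had 175.4, 142.0 and 194.6 in young and 238.5, 200.3 and 214.5 in old epididymal cells, without overlap. In the same cells Atp5f1a was at 0.00, Atp5f1b at 0.01 and Sdha at 0.02.

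**Figure D4:**
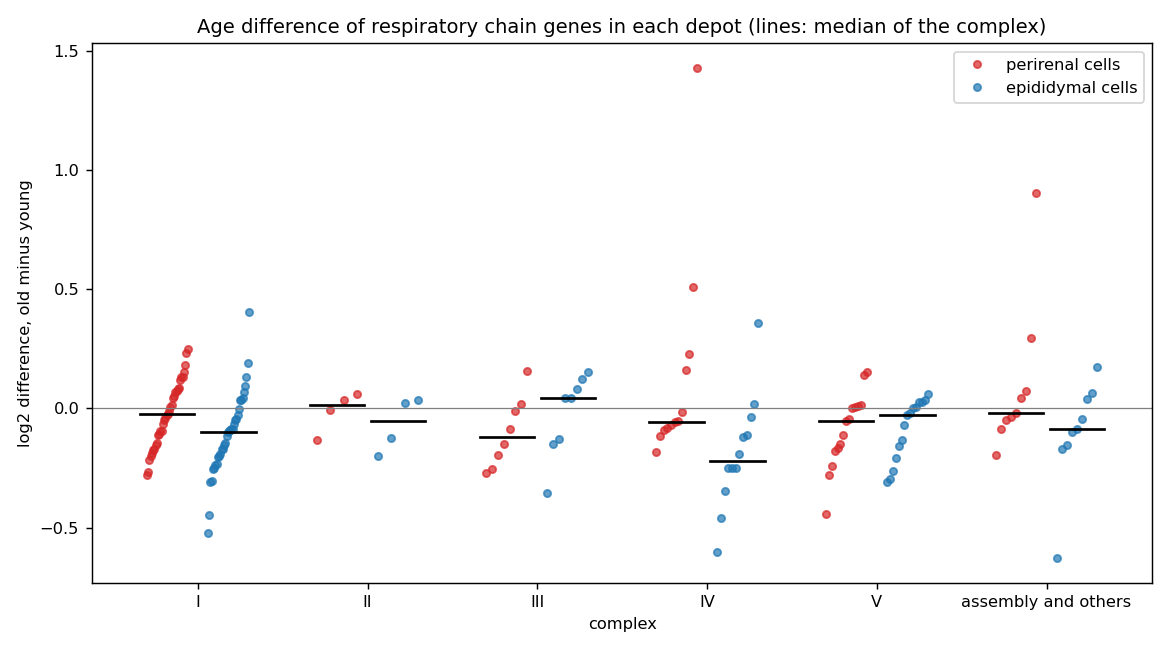
Log2 age difference (old minus young, vertical axis) of each tested member by complex, in perirenal (red) and epididymal (blue) cells, with black lines at the median of each complex. Most points lie near 0, no member passed the adjusted threshold, and the epididymal median of complex IV (-0.22) lies lowest.

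An interaction term, the perirenal minus the epididymal age difference, asks whether ageing moved a gene differently in each depot. No member passed, as 0% of all tested probe sets did, and 3 members were under an unadjusted p of 0.05, against 5.51% of all tested probe sets. These were Cox5b at 0.52 ± 0.16 (adjusted p = 0.846), Uqcrq, a small subunit of complex III, at 0.51 ± 0.18 (adjusted p = 0.854), and Ndufb11, an accessory subunit of complex I, at 0.70 ± 0.25 (adjusted p = 0.854). Uqcrq had 5458, 4748 and 5862 in young perirenal, 5969, 5366 and 6596 in old perirenal, 7165, 6612 and 7021 in young epididymal and 5135, 4919.6 and 6316 in old epididymal cells. The ages overlapped in perirenal and not in epididymal cells.

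Pairs of structural subunits were correlated from array to array within groups, though not in every complex. The mean correlation between pairs of subunits, taken on deviations from the group means, was 0.201 over the 6 perirenal and 0.251 over the 6 epididymal arrays for 73 subunits, against 0.004 and 0.006 for tested probe sets in the highest 25% of signal. These pairs share the same arrays, RNA and scaling, so this is a description only. In epididymal cells it was 0.290 within complex I, -0.143 within complex II (4 genes), 0.196 within complex III, 0.127 within complex IV and 0.322 within complex V. In perirenal cells the same values were 0.235, 0.643, 0.082, 0.301 and 0.137. For the assembly factors and others it was -0.049 in perirenal and -0.002 in epididymal cells. On the array of young epididymal rat 3, with a beta-actin ratio of 38.2, the members lay on average 0.116 above their group means. On that of old epididymal rat 2, with the highest ratio of 55.0, their mean deviation was -0.036. Over all tested probe sets the mean deviations on these arrays were -0.069 and 0.011. Members and all tested probe sets deviated in opposite directions on every array of both depots but that of old perirenal rat 1. Tested probe sets in the highest 25% of signal deviated in the members' direction on the same arrays. Their mean deviations were 0.014 on young epididymal rat 3 and -0.010 on old epididymal rat 2. The opposite direction is thus shared with other probe sets of strong signal, and the cause was not tested. The median standard deviation of the members within groups was 0.170 in perirenal and 0.181 in epididymal cells, against 0.164 and 0.205 over the same probe sets of high signal.

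Genes around the respiratory chain, grouped in lists by function, also went in both directions between depots. The counts below stand beside 30.2% higher and 21.4% lower over all tested probe sets, and the list medians lay between -0.13 and 0.02. Of 34 assembly factors of the complexes tested, 4 were higher and 8 lower in perirenal cells, with Cox16 at 1.28 ± 0.13 and Lrpprc, which stabilises mitochondrial messenger RNA, at -1.02 ± 0.11. Among 27 genes of the citric acid cycle and pyruvate dehydrogenase 6 were higher and 5 lower, with the pyruvate dehydrogenase phosphatases Pdp2 (0.91) and Pdp1 (0.74) up and Idh3a (-0.77), a subunit of isocitrate dehydrogenase, down. Mitochondrial protein import and dynamics had 13 higher and 2 lower of 38, with a median of 0.02, and the processing peptidase subunit Pmpca (0.86) and the translocase subunit Timm17b (0.75) were among the higher.

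Fatty acid beta oxidation had 4 higher and 6 lower of 23, with Acadsb at 2.79 and Cpt1a, which admits long-chain fatty acids to the mitochondrion, at -0.75. Biogenesis and mitochondrial DNA upkeep had 2 higher and 3 lower of 18, with the protease Lonp1 at -0.75 and the ETS-family partner Gabpb1 at -0.56. Among 16 carriers, porins and uncoupling proteins 3 were higher, with Ucp3 at 1.78 and the adenine nucleotide translocase Slc25a5 at 0.50, and 4 were lower. Of 22 genes of glycolysis 4 were higher and 8 lower, with Hk2 at 1.80, Pgk1 at -0.61 and Ldhb at -0.74. All of these named genes passed at an adjusted p of 0.0021 or less by limma, and no gene of these lists passed for age in either depot. Ucp1, the uncoupling protein of brown fat, lay under the filter level.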

How the data were processed

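Gene expression was measured on 12 one-colour arrays, 1 per depot and rat. The deposited values are intensity values, 1 linear signal per probe set and array, made with MAS5 per the submitters' processing notes, which give no version or parameters. The mean signal of each array without its lowest and highest 2% was 500.1 to 500.2, so the deposited scaling was kept. The log2 of each signal was taken with no offset, with 2 signals of 0 set to the lowest positive signal, 0.1. Of 15923 probe sets, 57 controls and the lowest 30% by mean log2 signal (a geometric mean under 56.3) were left out, and 11106 were tested.

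Differences were fitted with limma 3.58.1 in R 4.3.3 on all 12 arrays, 1 term per group, with an intensity trend and Benjamini-Hochberg adjustment over all tested probe sets. The age difference averaged over depots used the mean of both arrays of a rat. The fit was tested on simulated data. Arrays with the same number and age come from the same rat, by the animal number in the labels; the correlation of their deviations from the group means was 0.0393 to 0.201 over all tested probe sets. The rat as a block was an alternative, as were quantile normalization, other filters, an offset of 32, no trend, the beta-actin ratio as a covariate, left-out arrays and left-out rats. Complexes assigned by the start of the symbol were an alternative chosen after seeing the data. The members and gene lists were chosen with earlier results of these data known.

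For the depot difference averaged over ages the named genes were, in each complex, up to 3 rises and 3 falls past the threshold, plus catalytic subunits and isoform pairs. For the other comparisons up to 5 each way, or the smallest p where fewer than 3 passed, were named, and up to 2 each way from the other lists. Genes whose arrays did not overlap and members of small counts were also named, after their values were seen. Promoter sequences are those of RefSeq, build GRCr8. Probe positions, detection calls, scan dates and labelling batches were not used here.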

Additional observations from a re-analysis of the deposited data

How the results depend on the processing

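The counts by age stayed at 0 in every alternative that was run, and the block moved no count by over 1.5 times. With the rat as a fixed replicate block 38 members differed between depots averaged over ages, 26 in young and 19 in old rats, and as a random replicate block 39, 30 and 21. With the beta-actin ratio as a covariate 0 members passed averaged over ages, 0 in young and 0 in old rats, while 274 of all tested probe sets passed averaged over ages. Under this covariate Uqcr11 was at 0.0046 and Cox4i2 at -0.0069, both turned in sign, and the medians of complexes I, III and V were -0.018, 0.17 and 0.092. Under quantile normalization Cox4i1 turned to 0.27 and Atp5f1b to 0.31, the medians of complexes III, IV and V were 0.11, 0.16 and 0.067, and the members past the threshold went from 11 higher and 24 lower to 18 and 18. Without the 2 arrays of highest beta-actin ratio (young epididymal 3, old epididymal 2), 28, 22 and 12 members passed averaged over ages, in young and in old rats. Leaving out 1 rat at a time gave 22 to 30 members averaged over ages, 11 to 28 in young rats and 4 to 19 in old rats. Fewer arrays were fitted there; for the others the cause was not tested. Among 44 named differences that passed, 133 of 716 comparisons over the alternatives lost the call in the same direction and 2 turned in sign. With the beta-actin covariate none of the 44 kept its call. Among 57 named differences that did not pass, 48 of 902 comparisons changed sign with neither value past the threshold. Alternative settings did not include other ways of computing signals from probes, and 3 rats per age limit what differences with age could be detected.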
